A study of Mus musculus with 6 samples.

Results

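The Adam, Adamts, Adamts-like, Mmp and Timp genes of the mouse were described in motor neurons of the cervical and thoracic spinal cord. Members were chosen by symbol alone: a name starting with Adam, Adamts, Adamtsl or Mmp that ends in a number or a number and 1 letter, and Timp1 to Timp4. The rule matched 85 of 56805 genes in the count table, and the rule uses no expression value, although the families were picked with earlier results of these data known. They were 34 ADAM genes, 24 ADAMTS and ADAMTS-like genes, 23 MMP genes and 4 TIMP genes. RNA-seq libraries came from total RNA depleted of ribosomal RNA. There were 3 cervical and 3 thoracic libraries, all from motor neurons of embryos at e12.5 with a control genotype and without treatment. The sources used here do not say what the control genotype carries, how the cells were isolated or whether a replicate is 1 embryo or pooled embryos. The p-values therefore measure only the spread between these libraries.

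All of these families except the TIMPs and the ADAMTS-like proteins are built around a zinc-dependent metalloprotease domain. ADAMs are mostly membrane proteins that cut the outer part of other membrane proteins, such as Notch and cell adhesion molecules, from the cell surface. ADAMTS proteases are secreted and bind matrix. Several of them cleave versican and related proteoglycans, others trim procollagens or bind fibrillin microfibrils. The ADAMTS-like proteins have the matrix-binding part but no protease domain. MMPs cut collagens and other matrix and surface proteins, and TIMPs block their active site. In the developing spinal cord, ADAM10 and the matrix around growing axons are known for roles in Notch signalling and axon guidance.

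Counts summed to 32103071 to 33790634 per cervical library and to 32635514 to 53186131 per thoracic library. The members held 0.159 to 0.171% of them. Motor neuron markers were present in every library: the 8 genes of that list summed to 635.8, 309.1 and 424.8 CPM (counts per 1000000 counts, scaled between libraries by TMM) in cervical replicates 1, 2 and 3 and to 579.2, 372.7 and 514.0 CPM in thoracic replicates 1, 2 and 3. Other cell types were also represented. Neural progenitor markers summed to 760.1 to 1013 CPM in cervical libraries against 928.1 to 1235 CPM in thoracic ones, and 8 mesenchyme markers to 10.6 to 86.9 CPM in cervical libraries against 58.3 to 79.3 CPM in thoracic ones. No gene of the 11 marker lists was at 0 in all libraries. Cervical replicate 1 stood apart, with the highest motor neuron sum and the lowest mesenchyme and floor plate sums of the 6 libraries. In bulk RNA, fewer cells that express a gene and less of its RNA per cell cannot be told apart.

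Many members were not detected or close to it. Of the 85 members, 16 had no read in any library, 13 had between 1 and 58 reads over all 6 libraries and did not pass the low-count filter, and 56 passed and were tested. Detection differed by family: 22 of 24 ADAMTS and ADAMTS-like genes and 4 of 4 TIMPs were tested, against 17 of 34 ADAMs and 13 of 23 MMPs. A count of 0 over 216934948 reads allows up to 0.0138 CPM (3 reads, counting error only). Just inside the filter lay Adamtsl5, with means of 0.266 CPM in cervical libraries against 0.467 CPM in thoracic ones. Just outside lay Adam33, with means of 0.234 CPM in cervical libraries against 0.303 CPM in thoracic ones.

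Of the 16 genes with no read, 13 lie on chromosomes 8 and 9. On chromosome 9, 10 MMP genes lie between 7272514 and 7699586 (mm39). Of these, 6 had no read, and 9 had at most 10 reads over all libraries. The exception was Mmp13, a collagenase, at 0.124, 0.117 and 0.0313 CPM in cervical replicates 1, 2 and 3 and 0.149, 0.0613 and 0.0617 CPM in thoracic replicates 1, 2 and 3. For scale, 3 reads make 0.0564 to 0.0934 CPM in a library. Mmp3, a stromelysin, had no read. Mmp10, another stromelysin, had reads in 1 library only, thoracic replicate 2 at 0.0307 CPM. Mmp8, known as the collagenase of neutrophils, Mmp12, known as the elastase of macrophages, and Mmp20, known from tooth enamel, had no read. On chromosome 8, 7 of 14 ADAM genes had no read and 11 had at most 10 reads. Most of these, such as Adam24, Adam25 and Adam26b, are known from testis.

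Promoter sequences are shown for 3 genes of the chromosome 9 cluster because their letters set this cluster apart from the expressed members. They are RefSeq windows of 300 bases around the gene start (GRCm38.p6), 5′ to 3′ on the gene's strand. Capitals mark the letters TGANTCA (the AP-1 site), TATAAA (the TATA box) and, in Mmp3, TGATNNAT (a site for Pbx and Hox proteins). Motifs were searched on both strands, and none of those marked overlap.
Mmp13, chr9:7272264-7272563, plus strand: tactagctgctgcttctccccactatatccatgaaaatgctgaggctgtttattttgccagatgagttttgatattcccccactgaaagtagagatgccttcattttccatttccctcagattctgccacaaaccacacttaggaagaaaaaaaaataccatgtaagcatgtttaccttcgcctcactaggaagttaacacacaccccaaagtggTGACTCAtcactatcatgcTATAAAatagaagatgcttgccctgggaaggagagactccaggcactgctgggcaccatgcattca
Mmp3, chr9:7445572-7445871, plus strand: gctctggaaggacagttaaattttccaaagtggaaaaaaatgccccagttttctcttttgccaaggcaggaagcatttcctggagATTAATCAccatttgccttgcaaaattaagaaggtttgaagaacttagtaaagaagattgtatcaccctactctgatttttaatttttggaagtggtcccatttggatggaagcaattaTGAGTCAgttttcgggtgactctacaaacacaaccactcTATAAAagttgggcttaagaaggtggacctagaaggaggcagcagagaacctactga
Mmp10, chr9:7502092-7502391, plus strand: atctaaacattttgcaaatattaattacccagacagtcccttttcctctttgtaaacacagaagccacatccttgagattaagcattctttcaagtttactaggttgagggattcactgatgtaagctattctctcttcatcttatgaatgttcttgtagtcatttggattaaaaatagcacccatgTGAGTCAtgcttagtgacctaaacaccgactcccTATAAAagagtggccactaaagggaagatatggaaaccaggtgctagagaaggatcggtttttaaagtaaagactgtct
In each of the 3 windows the AP-1 letters lie upstream of the TATA letters. Windows were found for 54 of the 85 members, 34 tested and 20 not tested.

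Of the 10 MMP genes of the chromosome 9 cluster, 8 had the AP-1 letters, 9 had the TATA letters and 8 had both. Both occurred together in 1.54% of 32851 RefSeq windows. AP-1 letters were in 7.81% and TATA letters in 13.6% of all windows. The GC box letters GGGCGG were in none of the 10 genes and in 35.7% of all windows. The 10 genes are neighbours that arose by duplication, so they are not independent cases. Among members not tested outside this cluster, AP-1 letters were in 3 of 10 and TATA letters in 4 of 10.

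Promoters of tested members read differently. The GC box was in 25 of 34 tested genes and in 2 of 20 genes not tested, AP-1 letters were in 2 of 34 and 11 of 20, and TATA letters in 3 of 34 and 13 of 20. No tested gene had AP-1 and TATA letters together, against 9 of 20 genes not tested. The chromosome 9 cluster makes up 10 of these 20 genes and 8 of these 9. The contrasts between tested genes and genes not tested therefore rest partly on duplicated neighbours, which are not independent cases. The median number of CpG pairs per window was 19.0 for tested members and 1.0 for members not tested, with 7.0 for all windows. The Pbx and Hox letters were in 2 of 34 tested genes and 5 of 20 genes not tested (3 of them in the cluster), and in 8.85% of all windows. These letters are described, and no factor's binding was measured.

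**Figure D1:**
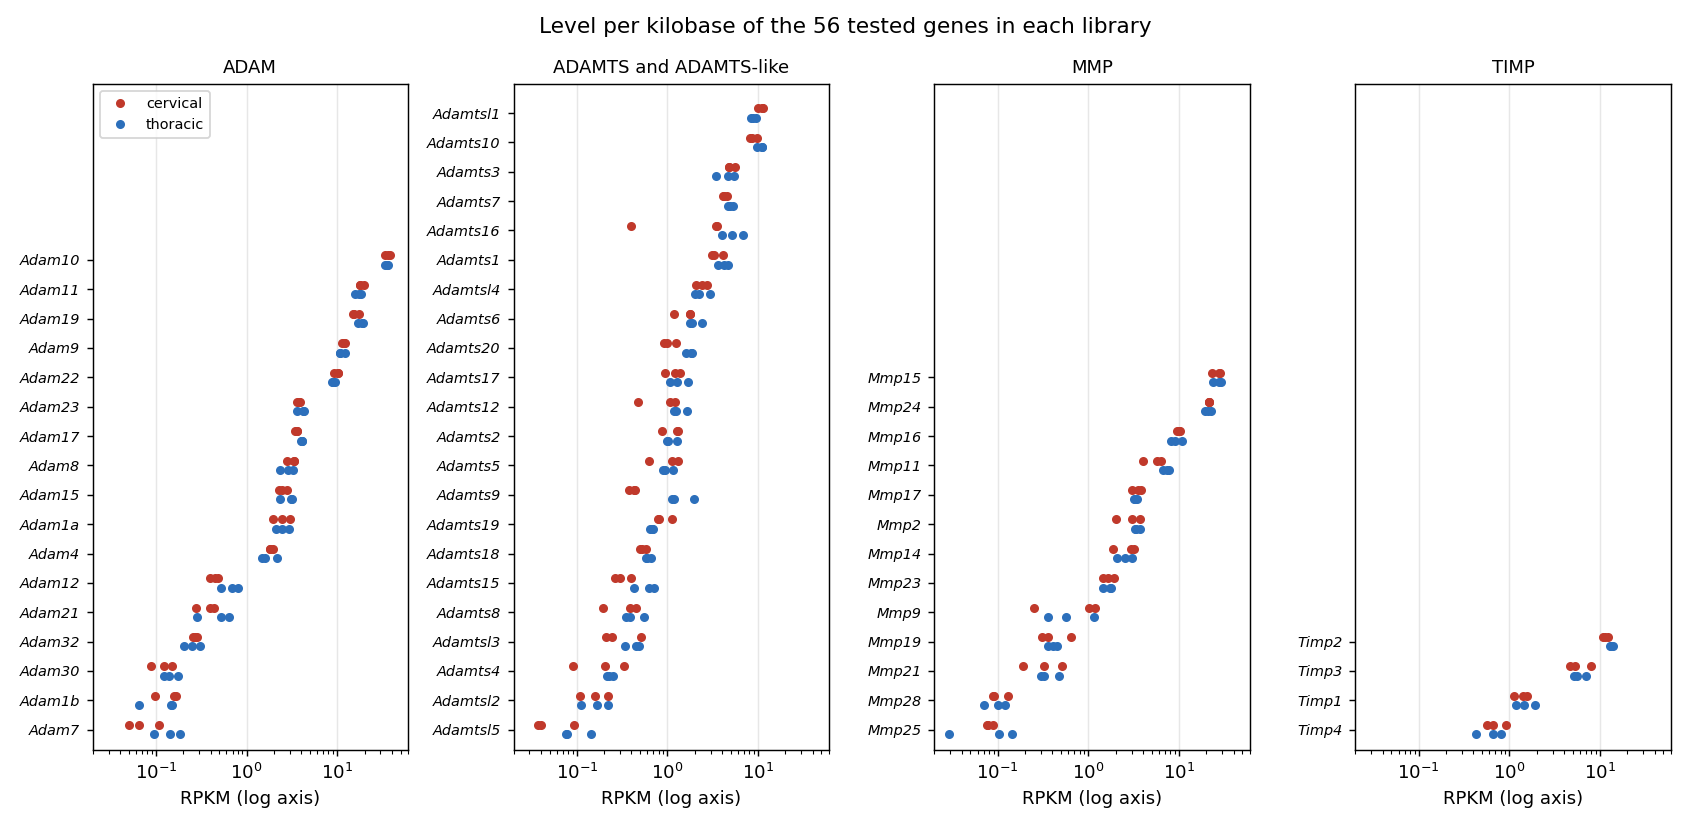
Level of the 56 tested genes in each library, in 4 panels for ADAM, ADAMTS and ADAMTS-like, MMP and TIMP genes, as RPKM (CPM per kilobase of exon) on a log axis, with cervical and thoracic libraries in different colours. Gene means run from 0.0776 to 35.6 RPKM, Adam10 is the highest, and the points of both regions lie close together for most genes.

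Among the 56 tested genes, mean levels spanned 0.0776 to 35.6 RPKM, and 35 genes had at least 1 RPKM. RPKM divides by the deposited exon length, so comparisons between genes depend on that length. Adam22 had a mean of 136.4 CPM against 100.8 CPM for Adam11, and 9.51 against 17.8 RPKM, with exon lengths of 14348 and 5669 bases. Which isoforms were expressed was not examined, so ranks and shares per length are approximate. Membrane-bound enzymes led. Adam10, the main Notch sheddase, had 36.0 ± 2.49 RPKM in cervical libraries against 35.2 ± 1.13 RPKM in thoracic ones (SD, n = 3 each) and made up 32.1% of the summed ADAM level. Mmp15, a membrane-type MMP, averaged 26.4 RPKM over all libraries, and Mmp24, a membrane-type MMP known from neurons, 21.2 RPKM.

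Of the ADAM genes, 7 of the 9 widely expressed proteases were tested. After Adam10 the most abundant were Adam19, an enzyme that can release neuregulin, at 17.1 RPKM and Adam9 at 11.5 RPKM. Adam17, the enzyme that releases TNF, had 3.80 RPKM. The 3 neural ADAMs that lack protease activity were all abundant per length: Adam11 at 17.8 RPKM, Adam22, a receptor of the secreted Lgi proteins, at 9.51 RPKM and Adam23, another Lgi receptor, at 3.90 RPKM. Together these 3 genes had 32.2 ± 0.407 RPKM in cervical libraries against 30.2 ± 1.13 RPKM in thoracic ones (SD, n = 3 each), and the summed values of the regions did not overlap. Each of the 3 genes alone did overlap, and Adam23 ran the other way (log2 fold change -0.12). The summed ADAM level was nearly the same in the regions, at 110.9 ± 0.956 RPKM in cervical libraries against 110.9 ± 2.14 RPKM in thoracic ones.

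None of the 17 tested ADAM genes was called between the regions, beside 0.542% of all tested genes (edgeR, adjusted p below 0.05). At an unadjusted p below 0.05 there were 3, beside 8.47% of all tested genes, and none was called with the replicate number as a block, by DESeq2 or by limma-voom. Adam12, an ADAM known from muscle and mesenchyme, had 4.77, 5.08 and 4.16 CPM in cervical replicates 1, 2 and 3 and 7.34, 5.58 and 8.46 CPM in thoracic replicates 1, 2 and 3. Every thoracic value was above every cervical value, and the log2 fold change of -0.61 (SE 0.19) did not pass (edgeR adjusted p = 0.290). Adam17 also did not overlap, at 24.5 to 25.9 CPM in cervical libraries against 28.3 to 29.5 CPM in thoracic ones, and did not pass (log2 fold change -0.19, edgeR adjusted p = 0.535). Adam17 shares 311 exonic bases with Iah1 on the opposite strand. Adam10 differed by less than its spread. Adam19 had 122.6, 106.4 and 108.6 CPM in cervical replicates 1, 2 and 3 and 136.4, 119.5 and 134.8 CPM in thoracic replicates 1, 2 and 3, which overlap (log2 fold change -0.21, SE 0.07, edgeR adjusted p = 0.394). Adam11 had 104.9 ± 6.26 CPM in cervical libraries against 96.8 ± 7.49 CPM in thoracic ones (SD, n = 3 each). Adam22 (log2 fold change 0.13, SE 0.06) and Adam8, an ADAM known from immune cells (0.16, SE 0.14), had the largest differences toward cervical libraries among the ADAM genes with at least 1 CPM. Adam21, known from testis, had -0.40 at a mean of 1.08 CPM in cervical libraries against 1.41 CPM in thoracic ones.

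Differences between the regions were found in the ADAMTS family. Adamts9 was 3.46-fold and Adamts20 1.68-fold higher in thoracic libraries, and they were the only 2 of 56 tested members called by edgeR's quasi-likelihood test at an adjusted p below 0.05. No member was called toward cervical libraries, where Adamtsl1 and Adamts19 had an unadjusted p below 0.05, DESeq2 called Adamtsl1 and limma-voom called none. Over all 21972 tested genes, 0.542% were called, 0.191% toward cervical and 0.350% toward thoracic libraries. With the replicate block 4 members were called, 1 toward cervical (Adamtsl1) and 3 toward thoracic libraries (Adamts9, Adamts20 and Adamts16), beside 1.97% of all genes. Leaving out cervical replicate 3 left 0 called members. Leaving out cervical replicate 2 or any of thoracic replicates 1, 2 and 3 left 1, Adamts9.

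Adamts9 and Adamts20 are the vertebrate relatives of the worm protease Gon-1, and both can cleave versican. Their RefSeq promoter windows are printed because these are the called genes. Capitals mark the GC box on either strand (GGGCGG or CCGCCC), and the windows are from GRCm38.p6, 5′ to 3′ on the gene's strand.
Adamts9, chr6:92943485-92943784, minus strand: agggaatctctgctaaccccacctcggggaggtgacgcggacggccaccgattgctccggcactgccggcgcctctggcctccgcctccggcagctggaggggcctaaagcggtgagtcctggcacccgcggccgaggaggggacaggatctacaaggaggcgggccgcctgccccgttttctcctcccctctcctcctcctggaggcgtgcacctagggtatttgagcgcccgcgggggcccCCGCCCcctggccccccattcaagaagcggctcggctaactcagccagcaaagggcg
Adamts20, chr15:94404301-94404600, minus strand: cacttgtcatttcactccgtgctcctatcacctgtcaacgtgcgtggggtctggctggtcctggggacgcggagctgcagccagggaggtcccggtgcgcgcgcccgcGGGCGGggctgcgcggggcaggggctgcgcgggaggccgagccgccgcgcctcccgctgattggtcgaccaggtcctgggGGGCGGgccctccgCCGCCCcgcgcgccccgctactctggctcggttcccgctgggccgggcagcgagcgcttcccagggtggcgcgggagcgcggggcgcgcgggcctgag
The Adamts9 window holds 1 GC box and 25 CpG pairs, and the Adamts20 window 3 GC boxes and 41 CpG pairs. Neither holds the AP-1 or TATA letters, which were in 8 and 9 of the 10 cluster genes above. This is common among tested members, where AP-1 letters were in 2, TATA letters in 3 and the GC box in 25 of 34 genes. Neither window holds the Pbx and Hox letters, which were in 3 of the 10 cluster genes. In the files' own build (mm39), Adamts9 spans chr6:92749680-92920473 and Adamts20 chr15:94168044-94363299, both on the minus strand.

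Adamts9 had 5.67, 6.46 and 6.51 CPM in cervical replicates 1, 2 and 3 and 17.0, 17.8 and 29.8 CPM in thoracic replicates 1, 2 and 3. The cervical libraries were tightly grouped, every thoracic value was far above them, and thoracic replicate 3 was the highest. The means were 6.21 ± 0.468 CPM in cervical libraries against 21.5 ± 7.20 CPM in thoracic ones (SD, n = 3 each; log2 fold change -1.79, SE 0.21, edgeR adjusted p = 0.00954). Without cervical replicate 3 the adjusted p was 0.053 with a log2 fold change of -1.82, and over all alternatives without the block it ranged between 6.45e-32 and 0.053. The lowest value came from the fit without a low-count filter. That fit gave Adamts16, whose cervical values spread widely, an SE of 0.11 instead of 0.53, so its small p-values carry little weight. Each replicate pair showed the direction, with log2 ratios of -1.58, -1.46 and -2.20. The antisense genes A730049H05Rik and Gm15737 share exonic bases with Adamts9 and had a mean of 8.0 and 15.0 counts, against 511.0 for Adamts9.

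Adamts20, known from the belted coat pattern of mutant mice, had 11.2, 8.92 and 8.20 CPM in cervical replicates 1, 2 and 3 and 14.5, 17.0 and 16.3 CPM in thoracic replicates 1, 2 and 3. The regions did not overlap, and the smallest gap was between cervical and thoracic replicate 1. The means were 9.43 ± 1.54 CPM in cervical libraries against 15.9 ± 1.30 CPM in thoracic ones (SD, n = 3 each; log2 fold change -0.75, SE 0.14, edgeR adjusted p = 0.0477). This call lay at the threshold. It was lost with a minimum mean of 1 CPM (adjusted p = 0.0521), in limma-voom (0.0502) and without any 1 library other than cervical replicate 1 (0.071 to 0.201), and it held without cervical replicate 1 (0.0171).

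**Figure D2:**
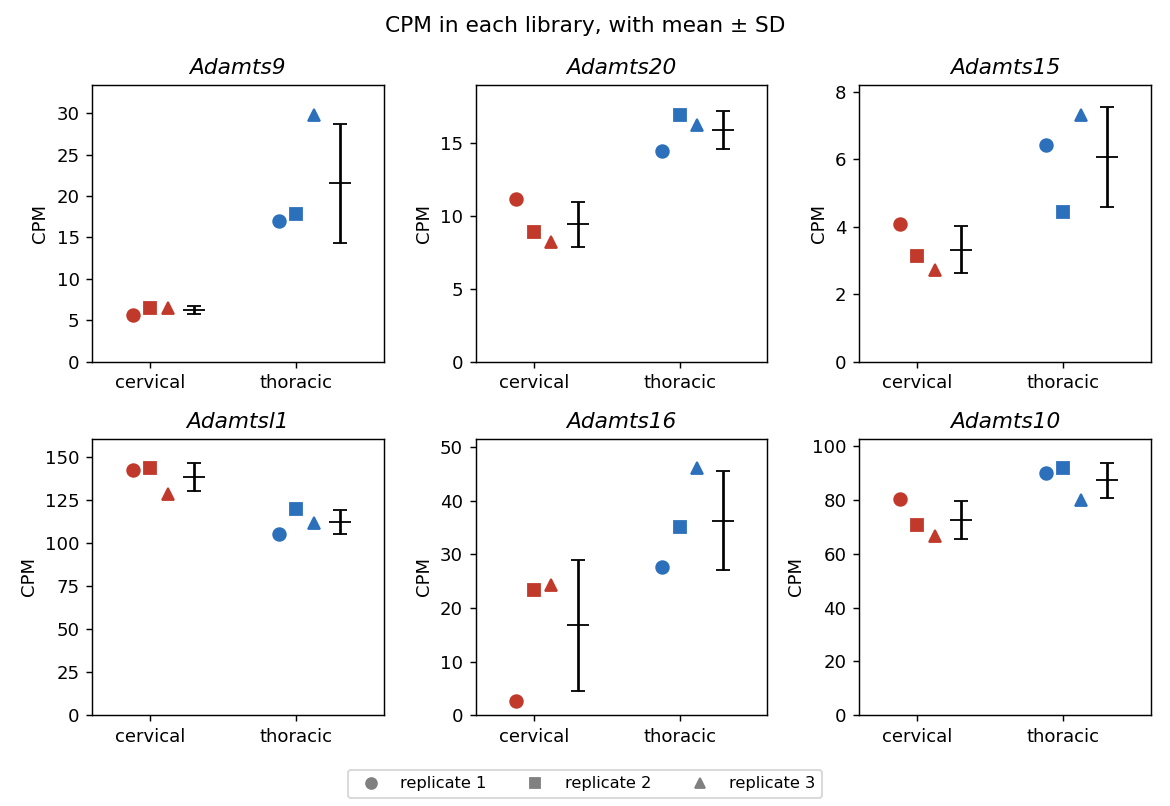
CPM of 6 ADAMTS and ADAMTS-like genes in each library, with cervical left of thoracic, 1 point per library and the mean with its SD as bars. The 3 cervical points of Adamts9 (5.67 to 6.51 CPM) lie below all thoracic points (17.0 to 29.8 CPM), Adamtsl1 runs the other way, and cervical replicate 1 of Adamts16 (2.73 CPM) lies far below the other libraries.

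Summed markers of neighbouring ventral cell types were also higher in thoracic libraries. The 4 markers of V3 interneurons and cerebrospinal fluid contacting neurons summed to 17.6, 12.9 and 10.6 CPM in cervical replicates 1, 2 and 3 and to 37.1, 53.3 and 61.7 CPM in thoracic replicates 1, 2 and 3, and the 3 tested ones were called higher in thoracic libraries. The 4 floor plate markers summed to 189.6, 417.8 and 392.8 CPM in cervical and to 426.4, 519.3 and 625.1 CPM in thoracic replicates 1, 2 and 3, with 0 of 4 called in edgeR (3 of 4 at an unadjusted p below 0.05) and 3 of 4 called with the block. Both sums were higher in every thoracic library than in any cervical one. The 6 pericyte markers summed to 108.4 to 155.4 CPM in cervical libraries against 147.0 to 200.4 CPM in thoracic ones. None of these markers was at 0 in all libraries, and their part in the result for Adamts9 and Adamts20 was not tested.

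Adamts9 and Adamts20 belong to the 7 ADAMTS proteases grouped as proteoglycanases. Of these 7, edgeR called 2 higher in thoracic libraries and not the other 5. Log2 fold changes lay below 0 for 6 of 7 (median -0.31), and for 32 of 56 tested members (median -0.12). Over all tested genes, 10525 of 21972 lay below 0 (median 0.0083). The summed level of the 7, called genes included, was 6.12, 7.64 and 6.76 RPKM in cervical replicates 1, 2 and 3 and 9.28, 9.89 and 9.58 RPKM in thoracic replicates 1, 2 and 3, with no overlap. Adamts1, the most abundant of them, had 16.3 to 21.6 CPM in cervical libraries against 19.1 to 24.7 CPM in thoracic ones, which overlap. Adamts15, which can also cleave versican, had 4.09, 3.14 and 2.72 CPM in cervical and 6.42, 4.45 and 7.32 CPM in thoracic replicates 1, 2 and 3. Its regions did not overlap, and its log2 fold change of -0.87 (SE 0.23) did not pass in edgeR (adjusted p = 0.188), while DESeq2 called it (adjusted p = 0.0184). Adamts5, an aggrecan-cleaving enzyme, had 11.04 ± 3.79 CPM in cervical libraries against 10.7 ± 1.54 CPM in thoracic ones (SD, n = 3 each).

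Adamtsl1, an ADAMTS-like protein without a protease domain, had a mean of 9.81 RPKM over all libraries and lies at chr4:85432409-86346622 (mm39, plus strand). It had 142.5, 143.4 and 128.7 CPM in cervical replicates 1, 2 and 3 and 105.3, 119.5 and 111.8 CPM in thoracic replicates 1, 2 and 3. Every cervical value was above every thoracic value, by a small margin relative to the level. The log2 fold change was 0.30 (SE 0.07) and did not pass (edgeR adjusted p = 0.109). It passed with the replicate block (adjusted p = 0.0305), and not with the block when cervical replicate 1 was left out (log2 fold change 0.23, adjusted p = 0.122). The summed level of the 5 ADAMTS-like genes was 13.8 ± 0.699 RPKM in cervical libraries against 11.9 ± 0.130 RPKM in thoracic ones (SD, n = 3 each).

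Adamts16, at chr13:70875921-70989930 (mm39, minus strand), had 2.73, 23.4 and 24.4 CPM in cervical replicates 1, 2 and 3 and 27.6, 35.2 and 46.0 CPM in thoracic replicates 1, 2 and 3. The regions did not overlap, and the mean of cervical replicates 2 and 3 was 8.74 times the value of replicate 1. Its SD within regions, 1.29 on the log2 CPM scale, was the largest among tested members with at least 1 CPM. The log2 fold change was -1.11 (SE 0.53, edgeR adjusted p = 0.626), and -1.43 (SE 0.33, adjusted p = 0.0475) with the replicate block. Without cervical replicate 1 it was -0.60 (adjusted p = 0.205), and with the block and without that library -0.75 (adjusted p = 2.75e-07). The last fit was chosen after seeing the data and has 1 residual degree of freedom, so its adjusted p carries little weight. The floor plate and mesenchyme sums were also lowest in cervical replicate 1. The mean of the other cervical libraries was 2.14 times its floor plate sum and 6.52 times its mesenchyme sum, and their part in the Adamts16 values was not tested.

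The remaining ADAMTS genes did not pass in edgeR with or without the block. Adamts10, a fibrillin-binding ADAMTS with a mean of 9.68 RPKM over all libraries, had 80.2, 70.8 and 66.6 CPM in cervical replicates 1, 2 and 3 and 90.0, 91.7 and 79.9 CPM in thoracic replicates 1, 2 and 3. Adamts10 and Adamtsl1 were the most abundant genes of the family in every library, and their order differed by region. Adamtsl1 led in cervical libraries (10.8 RPKM against 8.79 RPKM for Adamts10), and Adamts10 in thoracic ones (10.6 RPKM against 8.79 RPKM for Adamtsl1). The highest cervical CPM of Adamts10 lay just above the lowest thoracic value (log2 fold change -0.27, SE 0.08, edgeR adjusted p = 0.315). Adamts19 was the other gene whose cervical values were all higher, at 15.6, 11.4 and 10.95 CPM in cervical and 9.65, 8.99 and 9.51 CPM in thoracic replicates 1, 2 and 3. Its log2 fold change was 0.43 (SE 0.15, edgeR adjusted p = 0.403). Adamts12, which can cleave the cartilage protein COMP, had 5.18, 11.7 and 13.3 CPM in cervical and 12.8, 13.7 and 17.7 CPM in thoracic replicates 1, 2 and 3 (log2 fold change -0.55, edgeR adjusted p = 0.667). Its lowest value was in cervical replicate 1. Adamts7 and Adamts18 did not overlap between the regions, with log2 fold changes of -0.21 and -0.20. Adamts3, a procollagen protease that also activates VEGF-C, had 27.3 ± 2.46 CPM in cervical libraries against 24.5 ± 5.51 CPM in thoracic ones (SD, n = 3 each). Adamtsl3 had 2.50 ± 1.28 CPM in cervical libraries against 3.29 ± 0.609 CPM in thoracic ones (SD, n = 3 each).

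**Figure D3:**
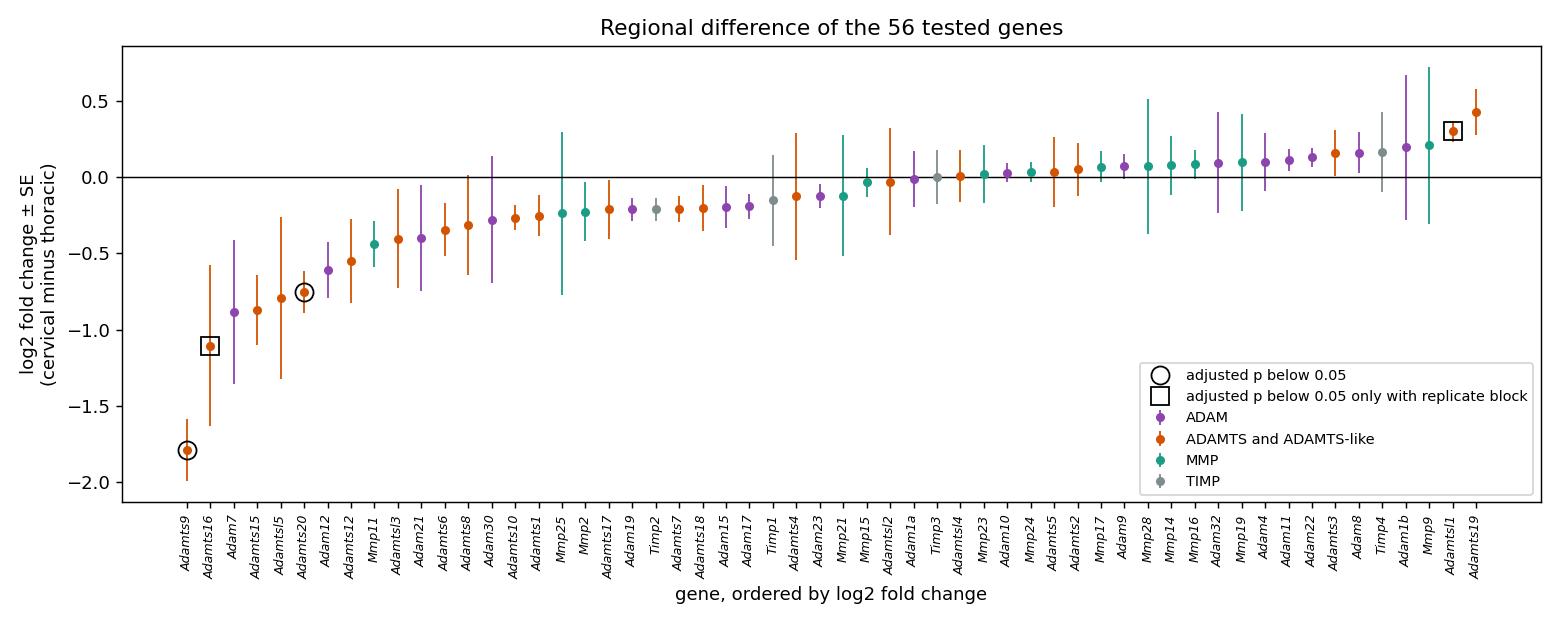
Log2 fold change (cervical minus thoracic) with its SE for the 56 tested genes, ordered by fold change and coloured by family, with genes called in edgeR circled and genes called only with the replicate block squared. Adamts9 (-1.79) and Adamts20 (-0.75) are circled below 0, and Adamts16 (-1.11) and Adamtsl1 (0.30) are squared.

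Values leaned toward thoracic libraries in most ADAMTS and ADAMTS-like genes. Their log2 fold changes lay below 0 for 16 of 22 (median -0.23), against 9 of 17 for ADAMs (median -0.01) and 5 of 13 for MMPs (median 0.03). Over all tested genes, 10525 of 21972 lay below 0. The summed ADAMTS and ADAMTS-like level was 47.5 ± 3.43 RPKM in cervical libraries against 54.0 ± 1.51 RPKM in thoracic ones (SD, n = 3 each), without overlap. Adamts16 alone had means of 2.46 against 5.30 RPKM. The ADAMTS-like and procollagen N-proteinase sums were higher in cervical libraries (ratios 1.16 and 1.10). Regions did not overlap for 12 of 56 members, beside 13.7% of all tested genes. Cervical values were the higher ones for 2 of these, beside 6.25% of all tested genes, and thoracic values for 10, called genes included, beside 7.50%. Cervical was higher in all 3 replicate pairs for 7 members, beside 15.0% of all genes, and thoracic was higher in all 3 for 21 members (37.5%), beside 16.3% of all genes. Cervical replicate 1 had the lowest value of the 6 libraries for 21 of 56 members, beside 17.6% of all genes, and cervical replicate 3 for 15, beside 14.8% of all genes.

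Among MMPs, membrane-type enzymes made up most of the level, at 63.5 ± 2.42 RPKM in cervical libraries against 62.8 ± 3.19 RPKM in thoracic ones (SD, n = 3 each). The whole family had 75.3 ± 1.96 RPKM in cervical libraries against 76.8 ± 3.08 RPKM in thoracic ones. All 6 membrane-type genes were tested, and none of the 13 tested MMPs was called in edgeR with all libraries, with or without the block, or by DESeq2 or limma-voom. Only Mmp11 had an unadjusted p below 0.05. Mmp15 had 141.0 ± 15.7 CPM in cervical libraries against 144.3 ± 15.2 CPM in thoracic ones, and Mmp24, which shares 637 exonic bases with BC029722 on the other strand, had 100.2 ± 0.753 CPM in cervical libraries against 97.9 ± 7.05 CPM in thoracic ones. Mmp16, also membrane-bound, had 85.1 ± 3.50 CPM in cervical libraries against 80.3 ± 11.4 CPM in thoracic ones. Each of these 3 differed by less than the spread of its libraries. Mmp14, the membrane enzyme that activates Mmp2, had 11.2, 17.8 and 18.8 CPM in cervical and 12.4, 18.0 and 15.0 CPM in thoracic replicates 1, 2 and 3.

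Mmp11 was the most abundant secreted MMP at 6.32 RPKM, below Mmp15, Mmp24 and Mmp16 and above the other membrane-type genes. Mmp11, known as stromelysin-3, had 11.3, 16.0 and 17.4 CPM in cervical replicates 1, 2 and 3 and 18.5, 20.7 and 21.5 CPM in thoracic replicates 1, 2 and 3. The regions did not overlap, and the difference did not pass (log2 fold change -0.44, SE 0.15, edgeR adjusted p = 0.383). It passed without the low-count filter (edgeR adjusted p = 0.0319), a fit whose small p-values carry little weight. Mmp2, a gelatinase, had 6.85, 10.3 and 12.6 CPM in cervical and 10.97, 11.3 and 12.7 CPM in thoracic replicates 1, 2 and 3, with its lowest value in cervical replicate 1. Mmp9, the other gelatinase and in adult mice known from fast motor neurons, had 0.899, 4.20 and 3.60 CPM in cervical and 4.13, 1.99 and 1.27 CPM in thoracic replicates 1, 2 and 3. Its values overlapped widely, with a log2 fold change of 0.21 (SE 0.52, edgeR adjusted p = 0.966). With the block and without cervical replicate 1 it was 1.28 (adjusted p = 0.00283). That fit was chosen after seeing the data and has 1 residual degree of freedom, so its adjusted p carries little weight. The markers of macrophages, which are known to make Mmp9, summed to 4.71, 17.7 and 12.8 CPM in cervical and 5.88, 10.7 and 5.13 CPM in thoracic replicates 1, 2 and 3, and their part in its values was not tested. Mmp19 had 1.54 ± 0.627 CPM in cervical libraries against 1.44 ± 0.170 CPM in thoracic ones, and shares 789 exonic bases with Tmem198b on the other strand.

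**Figure D4:**
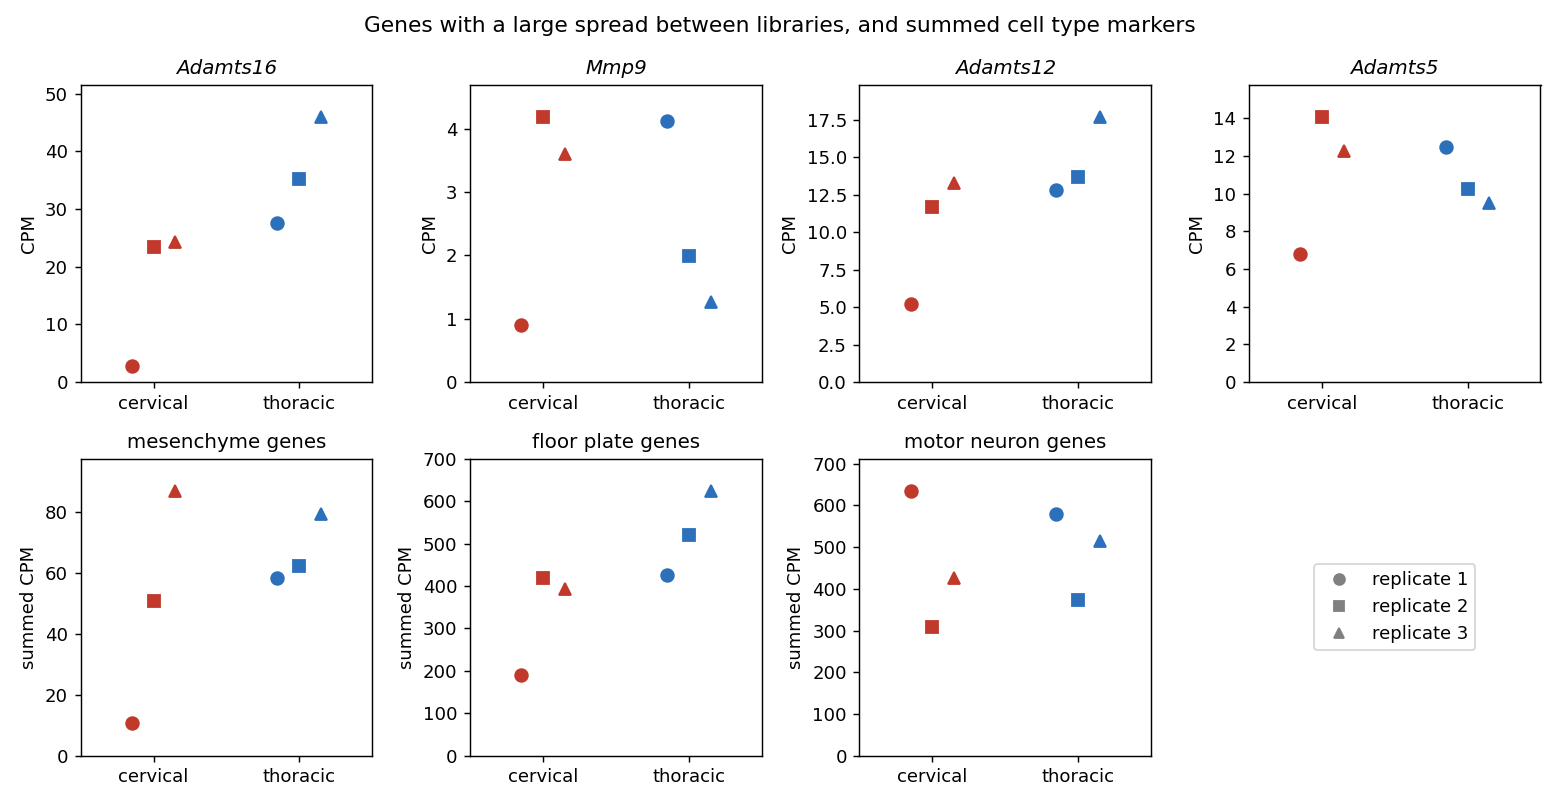
CPM per library of Adamts16, Mmp9, Adamts12 and Adamts5 and of the summed mesenchyme, floor plate and motor neuron markers, with cervical left of thoracic. Cervical replicate 1 is lowest for all 4 genes and for the mesenchyme (10.6 CPM) and floor plate (189.6 CPM) sums, and highest for the motor neuron sum (635.8 CPM).

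All 4 TIMPs were tested and none was called in edgeR, with or without the block, or by DESeq2 or limma-voom. Timp2 alone had an unadjusted p below 0.05. Timp2, which inhibits MMPs and helps Mmp14 activate Mmp2, made up 61.0% of their summed level. It had 46.2, 52.5 and 48.6 CPM in cervical replicates 1, 2 and 3 and 55.0, 58.7 and 56.6 CPM in thoracic replicates 1, 2 and 3. Every thoracic value was higher, by a small margin (log2 fold change -0.21, SE 0.07, edgeR adjusted p = 0.397). Timp3, which binds matrix and also inhibits ADAM17, had 37.6, 64.4 and 42.7 CPM in cervical and 45.8, 56.4 and 42.4 CPM in thoracic replicates 1, 2 and 3. Replicate 2 was the highest library of each region, and the region means were nearly equal. Timp3 shares 1733 exonic bases with Syn3 on the other strand, which had a mean of 1312.3 counts against 1739.3 for Timp3, so its level is uncertain. Timp1 had 1.23 ± 0.207 CPM in cervical libraries against 1.35 ± 0.341 CPM in thoracic ones, and Timp4 4.20 ± 1.06 CPM in cervical libraries against 3.74 ± 1.14 CPM in thoracic ones (SD, n = 3 each).

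The genes that these enzymes act on or with were looked at in 7 lists with 63 genes, 61 of them tested. None was called in edgeR, with 11 at an unadjusted p below 0.05, beside 8.47% of all tested genes. DESeq2 called 4, beside 1.86% of all genes, and limma-voom 0. With the replicate block 11 were called, 1 toward cervical and 10 toward thoracic libraries, beside 0.573% and 1.39% of all genes. Without cervical replicate 1 the count without the block was 2 (Kcna1 and Tspan17), and without cervical replicate 3 it was 3 (Col1a1, Col1a2 and Col3a1). Log2 fold changes lay below 0 for 44 of 61 (median -0.14), beside 10525 of all 21972 tested genes.

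Versican is the proteoglycan that Adamts9, Adamts20 and other members of their group cut. Vcan, its gene, had 642.0, 679.5 and 813.3 CPM in cervical replicates 1, 2 and 3 and 585.8, 464.3 and 543.1 CPM in thoracic replicates 1, 2 and 3. All cervical values were higher, and the sign was opposite to that of Adamts9 and Adamts20. The log2 fold change was 0.42 (SE 0.10, edgeR adjusted p = 0.141), with an adjusted p of 0.0112 with the block. Ncan, neurocan, was the most abundant proteoglycan per length at 136.0 RPKM, with 998.9 ± 70.3 CPM in cervical libraries against 957.4 ± 94.3 CPM in thoracic ones (SD, n = 3 each). With the block, 5 of 11 procollagens and their proteinases, 2 of 8 fibrillins and microfibril genes, 2 of 11 substrates of ADAM10 or ADAM17 and 1 of 12 partners of ADAM10 or ADAM17 were called, all higher in thoracic libraries.

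Both fibrillin genes were called with the block. Fbn2, a fibrillin of embryonic tissue, had 32.5, 29.8 and 49.4 CPM in cervical and 64.6, 48.2 and 77.3 CPM in thoracic replicates 1, 2 and 3. The regions overlapped through cervical replicate 3 and thoracic replicate 2, and each pair was higher in its thoracic library (log2 fold change -0.77, SE 0.20, edgeR adjusted p = 0.169, blocked 3.57e-04). For Fbn1 the log2 fold change was -0.56 (SE 0.18), with an adjusted p of 0.337 in edgeR and 0.0229 with the block. Col1a1, a collagen known from mesenchyme, had 2.57, 3.67 and 21.7 CPM in cervical and 15.1, 20.6 and 28.4 CPM in thoracic replicates 1, 2 and 3. Cervical replicate 3 lay among the thoracic values and had the highest mesenchyme sum of the 6 libraries, at 86.9 CPM. The part of mesenchyme in the procollagen values was not tested. Also called with the block were Col5a1, Col3a1 and Col2a1. Their blocked log2 fold changes were -0.76, -1.60 and -0.42, with blocked adjusted p of 0.0014, 0.0331 and 0.0291. Without the block the log2 fold changes were -0.72, -0.91 and -0.38, with edgeR adjusted p of 0.253, 0.824 and 0.601. Bmp1, the procollagen C-proteinase, was the most abundant of that list at 14.7 RPKM (log2 fold change -0.26, edgeR adjusted p = 0.279, blocked 0.0444).

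None of the partners and substrates of ADAM10 and ADAM17 was called in edgeR with all 6 libraries and no block. Tspan14, a tetraspanin that carries ADAM10, had 67.3 ± 2.29 CPM in cervical libraries against 66.1 ± 5.36 CPM in thoracic ones (SD, n = 3 each). Tspan17, another of that group, differed by -0.56 on the log2 scale (SE 0.16), with an adjusted p of 0.235 in edgeR and 0.0236 with the block, and DESeq2 called it (adjusted p = 0.0268). Among substrates, Notch1 and Notch2 had log2 fold changes of -0.24 and -0.39, with edgeR adjusted p of 0.606 and 0.512 and blocked values of 0.0484 and 0.0332. Ncam1, the most abundant of the 11 substrates at 184.0 RPKM, had 1518 ± 19.9 CPM in cervical libraries against 1670 ± 114 CPM in thoracic ones (SD, n = 3 each) and did not pass (edgeR adjusted p = 0.618). The lists of Lgi genes with their partners and of other metalloprotease inhibitors had no call in edgeR with all libraries, with or without the block. In the Lgi list, Kcna1, a potassium channel, had a log2 fold change of 0.76 (SE 0.23, adjusted p = 0.304 in edgeR), and DESeq2 called it (adjusted p = 0.0312). Their most abundant genes were Dlg4 at 23.4 RPKM and Spock2 at 72.8 RPKM.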

How the data were processed

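The authors deposited raw read counts per gene with mm39 coordinates and exonic lengths. The submitters' processing notes name FastQC 0.11.9, STAR 2.7.5b as aligner and featureCounts 2.0.1 as counter. The annotation release, the strand setting and the treatment of multiply mapped reads were not stated there. Where strand is unknown, reads of genes that overlap on opposite strands cannot be told apart, and Adam1a shares 771 bases with Gm42878 and Timp2 332 with Cep295nl on the same strand.

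From the counts, genes were kept by the default filter of edgeR 4.0.16 in R 4.3.3 (minimum count 10), which left 21972 genes and removed 0.117% of counts. TMM factors lay between 0.989 and 1.01. The test was edgeR's quasi-likelihood F test of region alone, with Benjamini-Hochberg adjustment over all tested genes and calls at 0.05. Log2 fold changes are cervical minus thoracic and come from the fit without the block unless another fit is named. The SE is the size of the fold change over the square root of F. CPM is TMM-scaled, and RPKM divides it by the exonic length in kilobases. The common biological coefficient of variation was 15.4%.

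Replicate numbers come from the sample titles. Libraries of the same number deviated together from their region means, with weak correlations of 0.207, 0.201 and 0.240. Other pairs had -0.214 to -0.0116. Deviations sum to 0 within a region, so negative values there follow from the positive ones and are no separate evidence. Some marker sums also followed the replicate number. In each region the motor neuron sum was highest in replicate 1 and lowest in replicate 2, and the neural progenitor sum the reverse. The floor plate sum was highest in cervical replicate 2 and thoracic replicate 3. The block was used only as an alternative fit. On simulated counts of this comparison (21516 genes on average), 36.1% of 1.5-fold, 69.7% of 2-fold and 96% of 4-fold changes were called, and 3.04% of calls were false. The simulation gave each gene the spread typical of its level and held no replicate effect. Its rates do not cover genes with a larger spread of their own, such as Adamts16, or a library that stands apart.

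Members and lists were chosen with earlier results of these data known. Genes named are those called in either fit, the 3 most abundant per family, the 2 largest differences in each direction per family and the 5 with the largest spread (mean CPM of at least 1), the nearest to the filter, and from each partner list the genes called without the block (none) and the most abundant gene. Levels of Adamts4 are not reported here. Other genes given values, among them the partners called with the block, were chosen after those were seen. Alternatives were the block, 2 other scalings, 2 other filters, DESeq2 1.42.0, limma-voom (limma 3.58.1) and leaving out each library. Promoters come from the RefSeq table of GRCm38.p6, matched by symbol. Intervals and floors cover counting error only.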

Additional observations from a re-analysis of the deposited data

How the results depend on the processing

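The count of called members was 2. It was 4 with the replicate block, 8 without a low-count filter, 1 with a minimum mean of 1 CPM, 4 in DESeq2, 1 in limma-voom and between 0 and 2 when 1 library was left out. Without the filter, even Adamts16 with its large spread had an SE of 0.11, against 0.53 with the filter. All counts of calls from the fit without a filter therefore carry little weight. The count over all genes was 119 of 21972 tested genes. It was 432 with the block, 747 of 39190 without a filter, 95 of 17083 with a minimum mean of 1 CPM and 408 in DESeq2. When 1 library was left out it lay between 9 (without cervical replicate 3) and 159, with 41 without cervical replicate 2 and 37 and 45 without thoracic replicates 2 and 3. The limma-voom count over all genes is not reported here, so its few member calls have no share beside them. Called partner genes numbered 0, against 11 with the block, 17 without a filter, 4 in DESeq2 and 0 to 3 when 1 library was left out. The block without cervical replicate 1, chosen after seeing the data and with 1 residual degree of freedom, called 6 members, 798 genes and 11 partners. The members were Adamts9, Adamts20, Adamts16, Adamts15, Adamts10 and Mmp9. The other scalings left all 36 named genes on their side of the threshold and in their direction. Of these 36, Adamtsl1, Adamts16 and Bmp1 changed their call with the block.

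Signs changed for genes that were not called in edgeR with all libraries and no block. Of those listed here, only Mmp9 was called in any setting, with the block and without cervical replicate 1. Timp3 had -0.0265 with the block, -7e-04 without a filter and in DESeq2, and -0.0175 in limma-voom. With the block and without cervical replicate 1, Mmp16 had -0.0041, Timp1 0.0362 and Tspan14 -0.0218. When 1 library was left out, log2 fold changes lay between -0.27 and 0.15 for Timp3, -0.16 and 0.83 for Mmp9, -0.29 and 0.29 for Mmp19, -0.0528 and 0.38 for Timp4, -0.62 and 0.23 for Adamts4, -0.30 and 0.0666 for Timp1, -0.12 and 0.0557 for Mmp15, -0.0062 and 0.20 for Mmp16, -0.0014 and 0.31 for Adamts3, -0.019 and 0.0852 for Mmp24, -0.0146 and 0.0841 for Adam10, -0.0034 and 0.14 for Ncan, -3e-04 and 0.0593 for Spock2, and -0.0161 and 0.0949 for Tspan14. The cause of these changes was not tested. Depth limits the members with few reads, and 3 libraries per region limit small differences.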
